A study of Mus musculus with 2 samples.

Results

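The p200 family, the interferon-inducible Ifi200 genes of the mouse, was followed in 2 messenger RNA libraries of breast tumour tissue. Members were the rows of the count table whose symbol was one of 10 named genes (Ifi203, Ifi204, Ifi205, Ifi207, Ifi209, Ifi211, Ifi213, Mnda, Mndal and Aim2), and 9 of them were measured among 35602 gene symbols. Mnda was not analysed here, and RefSeq gives that name as a synonym of Ifi211. Mndal is a symbol of its own in RefSeq and is also given there as a synonym of Ifi203. The other 4 family genes with a row, Ifi202b, Ifi206, Ifi208 and Ifi214, are given beside the members, which makes 13 family genes. In one group a PD-1 inhibitor had been injected into the peritoneum (the PD-1-only library), and in the other acupuncture had been added to that injection (the acupuncture library), so both carried the PD-1 blockade and no untreated tumour was compared. Each group was 1 library, with 105728292 and 60752043 counts in all. The sources used here name no strain, age, tumour model, sampling time or number of animals per library. The series asks what acupuncture adds to PD-1 blockade in the anti-tumour immune response. With 1 library per group there was no test and no p-value, and every interval below is a 95% interval of counting error only.

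Proteins of this family carry a HIN domain that binds DNA, and most also carry a pyrin domain that recruits partner proteins. Aim2 is the sensor of cytosolic double-stranded DNA that assembles an inflammasome with the adaptor Pycard (ASC) and the protease Casp1, which matures interleukin 1 beta and interleukin 18. Ifi204 is the mouse protein most often set beside human IFI16 and is linked to the adaptor Sting1, which leads from cytosolic DNA to type I interferon. Most genes of the family are induced by interferons, through factors that bind the interferon-stimulated response element.

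In RefSeq order the 13 family genes stand side by side on chromosome 1, with 0 other genes of the count table between them. Promoter windows of RefSeq, build GRCm38.p6, were found for 8 of the 9 measured members and for 12 of the 13 family genes. Each window runs from 250 bases before to 50 bases after a transcript start, and position -1 is the last base before the start. The authors' counts rest on another build, so these positions are not tied to the counts. A core of the interferon-stimulated response element, spelled GAAA, any 2 bases, GAAA, was searched on both strands and was found for 6 of the 8 members and 9 of the 12 family genes. Over all 27025 genes with a window, 3.99% held it. The gamma-activated site, through which interferon gamma acts, spelled TTC, any 3 bases, GAA, was found for 0 of the 8 members and 1 of the 12 family genes, Ifi202b, against 9.55% of all genes. The genes arose as copies of one another, so their windows are not independent of each other. A match is a description of letters and not of binding.

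The windows below show where the family shares this element and where it does not. Capitals mark the response element, each run is read 5′ to 3′ on the strand of the gene, and all end at position -1. They hold 100 bases each, or 200 for Ifi205, whose element on the strand of the gene lies farther from the start. Those of Ifi203 (chr1:173942493-173942592, minus strand), Mndal (chr1:173880188-173880287, minus strand) and Ifi211 (chr1:173913047-173913146, minus strand) are shown because these are abundant members. For Ifi203 and Mndal, RefSeq has 2 windows each and the one shown holds the element nearest to its start. The other window of Ifi203 holds no element. In the other window of Mndal it lies on the opposite strand, TTTCTCTTTC at -54. Ifi205 (chr1:174031756-174031955, minus strand), Ifi208 (chr1:173673565-173673664, plus strand) and Ifi214 (chr1:173535958-173536057, minus strand) show the element at other distances. Ifi209 (chr1:173630759-173630858, plus strand) and Aim2 (chr1:173420504-173420603, plus strand) are the members for which no window holds it.
Ifi203: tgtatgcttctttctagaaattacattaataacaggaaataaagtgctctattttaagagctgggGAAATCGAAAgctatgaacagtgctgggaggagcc
Mndal: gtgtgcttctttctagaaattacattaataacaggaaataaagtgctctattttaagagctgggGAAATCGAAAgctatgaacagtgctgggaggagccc
Ifi211: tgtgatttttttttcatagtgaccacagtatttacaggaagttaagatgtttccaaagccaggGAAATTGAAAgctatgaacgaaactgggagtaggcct
Ifi205: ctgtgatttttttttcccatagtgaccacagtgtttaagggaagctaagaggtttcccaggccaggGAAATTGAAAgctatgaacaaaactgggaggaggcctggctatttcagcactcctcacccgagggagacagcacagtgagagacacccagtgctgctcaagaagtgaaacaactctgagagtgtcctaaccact
Ifi208: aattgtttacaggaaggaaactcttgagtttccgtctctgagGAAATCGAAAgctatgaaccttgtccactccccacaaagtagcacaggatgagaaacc
Ifi214: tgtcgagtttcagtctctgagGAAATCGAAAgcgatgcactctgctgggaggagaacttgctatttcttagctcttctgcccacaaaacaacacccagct
Ifi209: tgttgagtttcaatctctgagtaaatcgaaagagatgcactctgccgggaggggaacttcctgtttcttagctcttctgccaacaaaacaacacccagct
Aim2: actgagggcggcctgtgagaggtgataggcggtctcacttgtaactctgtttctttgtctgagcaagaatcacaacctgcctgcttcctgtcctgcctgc

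The element began at -35 in Ifi203, -36 in Mndal, -37 in Ifi211, -40 in Ifi206 and -41 in Ifi207. It began at -58 in Ifi208, -73 in Ifi213, -79 in Ifi214 and -134 in Ifi205. The window of Ifi205 also held a match on the other strand, TTTCACTTTC, at position 23. That match lies after the transcript start, past the stretch shown. In 7 of the 9 windows with the element on the strand of the gene its letters were GAAATCGAAA, whereas Ifi211 and Ifi205 had GAAATTGAAA. At -79, the same distance as in Ifi214, the window of Ifi209 differed from GAAATCGAAA by the single substitution G1T, counted from 1 at the 5′ end of the element. This comparison of Ifi209 was made after the windows had been seen. Before the starts of Aim2 and Ifi202b, and before the other start of Ifi203, no stretch on the strand of the gene came closer than 4 mismatches.

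The family as a whole was somewhat higher in the library with acupuncture. The exception was scaling to the median of the leukocyte markers, where the summed ratio was 0.893. Levels are counts per 1000000 (CPM) on library sizes scaled by TMM, a scaling that sets the bulk of genes equal between libraries. The summed level of the 9 members was 640 CPM in the PD-1-only library and 808 CPM in the acupuncture library, 1.26-fold higher (1.25 to 1.28). All 9 members had a ratio above 1 with a counting interval above 1, which was so for 35.1% of the 18687 genes whose combined count reached 20, while 34.8% had an interval below 1. Calls of higher or lower needed a 2-fold ratio or more and an interval without 1, and by that rule 1 of the 9 members was higher and 0 were lower, against 9.21% and 4.9% of all genes. Those shares of all genes were 5.4% and 14.5% with the leukocyte marker list (below) set to a median log2 ratio of 0, and 19.4% and 1.89% with the epithelial list set to 0. The median log2 ratio of the members, with a prior count of 2, was 0.36, beside 0.0003 for all genes. In bulk tissue, more cells of a type and more RNA per cell cannot be told apart.

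**Figure D1:**
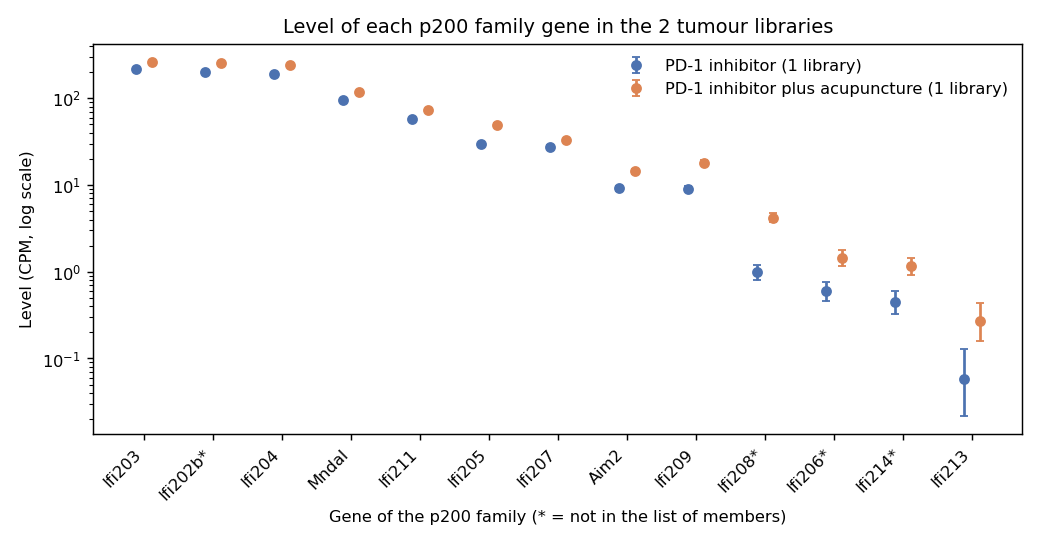
Level in CPM on a log axis for each of the 13 p200 family genes, in order of the level in the PD-1-only library, with 1 point per library and bars for the 95% counting interval. With this TMM scaling the acupuncture point lies above its partner for every gene (6 of the 13 turn below with the leukocyte list set to 0), by little for the abundant genes (220 and 260 CPM for Ifi203) and by most for the scarce ones (0.989 and 4.21 CPM for Ifi208).

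Aim2, the inflammasome sensor, had 941 counts in the PD-1-only library and 907 in the acupuncture library, or 9.22 and 14.4 CPM. That is 1.56-fold higher (1.43 to 1.72) in the acupuncture library, short of the 2-fold limit. No stretch of 50 bases in its GENCODE M21 transcript occurs in a transcript of another family gene. A read of that length that matches it exactly therefore matches no other family gene in that annotation. The aligner and counter were not given, so how its reads were divided was not tested.

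Ifi204, the member linked to STING, was among the abundant genes at 191 and 241 CPM (19481 and 15170 counts), 1.26-fold higher (1.24 to 1.29). Ifi203, a nuclear member, had the highest CPM of the family at 220 and 260 (22469 and 16347 counts) and the smallest ratio, 1.18 (1.16 to 1.2). Mndal, named for its likeness to the human myeloid nuclear differentiation antigen, stood at 96.7 and 118 CPM, 1.22-fold higher (1.19 to 1.26). Ifi211 stood at 57.0 and 73.2 CPM, 1.28-fold higher (1.23 to 1.33), and Ifi207 at 27.5 and 32.9 CPM, 1.2-fold higher (1.13 to 1.27). For these 5 genes the libraries differed by more than counting error, at ratios between 1.18 and 1.28.

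Ifi205 and Ifi209 stood further apart. Ifi205, which has been linked to expression of the adaptor Pycard in macrophages, had 3011 and 3110 counts, or 29.5 and 49.4 CPM, 1.68-fold higher (1.59 to 1.76). Ifi209, also known as Pyhin1, had 930 and 1140 counts, or 9.11 and 18.1 CPM, 1.99-fold higher (1.82 to 2.17). Ifi209 lay just under the 2-fold limit and passed it with library sizes scaled by total counts (2.13-fold) or by the upper quartile (2.02-fold).

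Ifi213 was the member called higher, and it was nearly absent from both libraries. It had 6 counts in the PD-1-only library and 17 in the acupuncture library, or 0.0588 and 0.27 CPM, a ratio of 4.6 with a wide interval (1.73 to 14.2). With a combined count of at least 100 required, it was not tested and 0 members were called.

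The family genes outside the list divided in the same manner between abundant and scarce. Ifi202b, whose protein has HIN domains without a pyrin domain and opposes Aim2, was at 202 and 256 CPM (20657 and 16084 counts), 1.26-fold higher (1.24 to 1.29). Its expression is known to differ between inbred mouse strains, and the sources used here name no strain. Ifi208 had 101 and 265 counts, 4.26-fold higher (3.37 to 5.41). Ifi206 had 61 and 90 counts, 2.39-fold higher (1.71 to 3.37), and Ifi214 had 46 and 73, 2.57-fold higher (1.76 to 3.81). All 4 family genes with a mean level under 5 CPM were called higher, as were 18.3% of the 6980 genes that scarce. None of the 9 family genes at or above 5 CPM was called higher, beside 3.78% of 11707 genes at such levels. That division by level was made after the values had been seen.

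**Figure D2:**
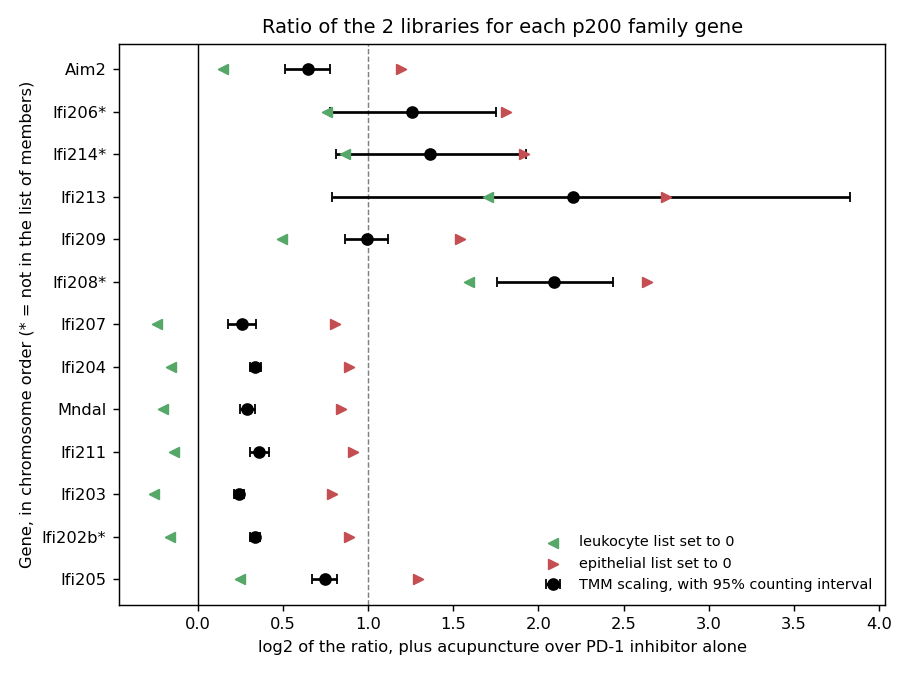
Log2 of the ratio of the 2 libraries for the 13 p200 family genes in chromosome order, with black points and bars for TMM scaling and its 95% counting interval, and triangles for scaling to the leukocyte or the epithelial list. The stretch from Ifi207 to Ifi202b holds ratios from 1.18 to 1.28, and these 6 genes fall below 0 with the leukocyte list set to 0 (dashed line: 2-fold).

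Levels between genes were compared per kilobase of coding length in GENCODE M21. Ifi202b came first in both libraries, at 152 and 191 CPM per kilobase, followed by Ifi204 at 103 and 130, Ifi203 at 84.2 and 99.4, Mndal at 59.9 and 73.3, Ifi211 at 44.7 and 57.4 and Ifi205 at 24.3 and 40.8. These first 6 places were the same in both libraries. Ifi207, Aim2 and Ifi209 followed in the PD-1-only library, at 9.38, 8.68 and 7.23 CPM per kilobase. With acupuncture Ifi209 (14.4) and Aim2 (13.6) stood above Ifi207 (11.2) by this measure. Coding length leaves out untranslated bases, and it is 1260 of 3439 transcript bases for Ifi209. For Aim2 it is 1062 of 2839 and for Ifi207 2934 of 3422. The order of these genes therefore depends on the length used, and no change of order can be read from it. Ifi213 was last in both, at 0.0334 and 0.154.

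The make-up of the family does not depend on the scaling between libraries. Ifi203 gave 34.4% (34.0 to 34.7) of the summed count of the 9 members in the PD-1-only library and 32.2% (31.8 to 32.6) with acupuncture. Ifi204 gave 29.8% (29.5 to 30.2) and 29.9% (29.5 to 30.3), a difference within counting error. The share of Ifi205 was 4.61% (4.45 to 4.77) and 6.12% (5.91 to 6.33), that of Ifi209 1.42% (1.33 to 1.52) and 2.24% (2.12 to 2.38), and that of Aim2 1.44% (1.35 to 1.53) and 1.79% (1.67 to 1.9). The intervals (exact Clopper-Pearson) of Ifi203, Ifi205, Ifi209 and Aim2 did not overlap between libraries. Shares of this kind were not computed for other genes. Among ratios of levels, 35.1% of the 18687 tested genes had an interval above 1 and 34.8% below 1, so counting error is small at this depth. Of these, Ifi203 had the smaller share with acupuncture and the others the larger. The intervals of Mndal, Ifi207, Ifi211 and Ifi213 overlapped.

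**Figure D3:**
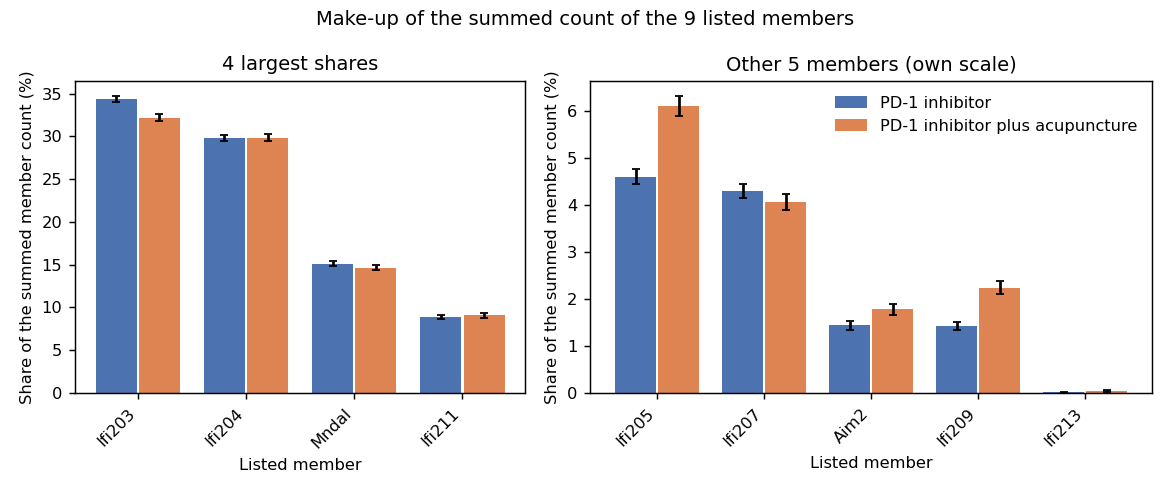
Share of the summed count of the 9 measured members taken by each member, in percent, for the 2 libraries, with 95% exact binomial intervals as bars and the smaller shares on a scale of their own. Ifi205 (4.61% and 6.12%), Ifi209 (1.42% and 2.24%) and Aim2 (1.44% and 1.79%) took larger shares with acupuncture.

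Family members resemble each other, and the sources used here do not say how the authors' counting treated reads that match several genes. Of the stretches of 50 bases in the Ifi211 transcript, 72.9% occur in another family gene, most often Ifi205 (44.6%). The same holds for 49.6% of Ifi205, 29.7% of Ifi204, 29.3% of Ifi209, 27.9% of Ifi213, 26.3% of Mndal, 4.83% of Ifi203 and 4.39% of Ifi207, and for 0% of Aim2 and Ifi202b. The values of Ifi211, Ifi205, Ifi204, Ifi209, Ifi213 and Mndal are therefore uncertain where reads are shared, as are those of Ifi208 (25.9%), Ifi206 (15.1%) and Ifi214 (35.0%). GENCODE M21 follows the C57BL/6J genome.

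Among DNA sensors outside the family, 1 of 12 was higher and 0 were lower, with a median log2 ratio of 0.19. Zbp1, a sensor of Z-form nucleic acids that is itself induced by interferon, was at 68.7 and 142 CPM, 2.07-fold higher (2.01 to 2.14). Cgas, the synthase whose cyclic dinucleotide activates STING, was at 14.7 and 24.3 CPM, 1.66-fold higher (1.54 to 1.78). Hnrnpa2b1 and Dhx9, with the most counts of this list and known as RNA-binding proteins that can also sense DNA, had ratios of 1.05 and 1.04. Tlr9, the endosomal sensor of unmethylated DNA, had 313 and 162 counts, a ratio of 0.84 (0.69 to 1.02) whose interval included 1.

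Downstream of the sensors, 0 of 10 genes of the STING adaptor, its kinases and factors were called higher or lower, and their median log2 ratio was -0.02. Sting1 stood at 73.0 and 85.7 CPM, 1.18-fold higher (1.13 to 1.22), a ratio equal to that of Ifi203. Irf7, the interferon-induced factor that amplifies type I interferon, was 1.56-fold higher (1.52 to 1.6), whereas Irf3, the constitutive factor, was 1.29-fold lower (1.24 to 1.35). Of 12 nucleases and brakes of DNA sensing, 1 was higher, 1 was lower and the median log2 ratio was -0.19. Trex1, the exonuclease that clears cytosolic DNA, was at 18.2 and 8.12 CPM, 2.24-fold lower (2.03 to 2.48). Dnase1l3, a secreted DNase made by dendritic cells and macrophages, was at 2.24 and 10.8 CPM, 4.8-fold higher (4.13 to 5.6). Samhd1, which depletes deoxynucleotides, had the most counts of this list, at 209 and 362 CPM, 1.73-fold higher (1.7 to 1.76).

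Inflammasome genes went both ways, with 0 of 17 higher, 1 lower and a median log2 ratio of 0.02. Pycard, the adaptor of Aim2, was at 9.11 and 10.4 CPM, 1.14-fold higher (1.03 to 1.26), and Casp1 at 51.3 and 86.4 CPM, 1.69-fold higher (1.62 to 1.75). Casp8, with the most counts of the list, had a ratio of 1.16, and Gsdmd, the pore protein, was at 72.1 and 73.0 CPM with an interval that included 1 (0.976 to 1.05). The cytokine products stood apart from the sensor, with Il1b 1.66-fold lower (1.59 to 1.73) and Il18 at a ratio of 1.04 (0.953 to 1.14). Il1rn, the antagonist of the interleukin 1 receptor, was the gene called lower, at 31.9 and 15.1 CPM, 2.11-fold lower (1.97 to 2.28). Of 12 neutrophil markers, 0 were higher and 8 were lower, with a summed level of 539 and 165 CPM, and their part in the result was not tested.

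Interferon ligands were scarce. Ifng had 15 and 167 counts, 18.1-fold higher (10.6 to 33.0), and was the gene called higher of the 2 with enough counts. The other was Ifnz, with 39 and 19 counts. Ifnb1 had 6 and 2 counts, and Ifna1, Ifna2, Ifna4 and Ifna5 had 0 in both libraries, where 3 counts would be 0.0294 and 0.0477 CPM. Among interferon receptors and signalling genes, Socs1, a feedback inhibitor, was at 9.31 and 21.4 CPM, 2.3-fold higher (2.11 to 2.5). Stat2 and Irf9, which act at the interferon-stimulated response element, had ratios of 1.79 (1.74 to 1.84) and 1.28 (1.24 to 1.32). Ifnlr1, the receptor of lambda interferons, was 2.42-fold lower (2.02 to 2.92). The median log2 ratio of the 17 genes of the list was -0.08.

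The 9 listed members of the p200 family lay closer to all genes than other interferon-induced genes did, although this difference was not tested. Of 24 genes of the interferon gamma response, 21 were higher, 0 were lower and the median log2 ratio was 1.69, beside 0.36 for the 9 members. The median was 0.64 for all 13 family genes and 1.27 for the 4 outside the list, so the contrast depends on which family genes are counted. Gbp2, a guanylate-binding protein, was at 157 and 484 CPM, 3.08-fold higher (3.02 to 3.14), and Igtp, an immunity-related GTPase, was at 95.2 and 413 CPM, 4.34-fold higher (4.24 to 4.44). Psmb8, with the most counts of that list, was not called, at 248 and 347 CPM, 1.4-fold higher (1.37 to 1.42). Of 22 genes of the type I response, 5 were higher, 0 were lower and the median was 0.83. The genes called were Ifi44 (2.01-fold), Ifit3 (2.56-fold), Ifit2 (2.16-fold), Ifit3b (2.32-fold) and Cmpk2 (2.07-fold). Bst2, the tetherin that holds budding virus and the gene with the most counts of that list, was at 206 and 253 CPM, 1.23-fold higher (1.2 to 1.25), a ratio like those of Mndal and Ifi204.

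**Figure D4:**
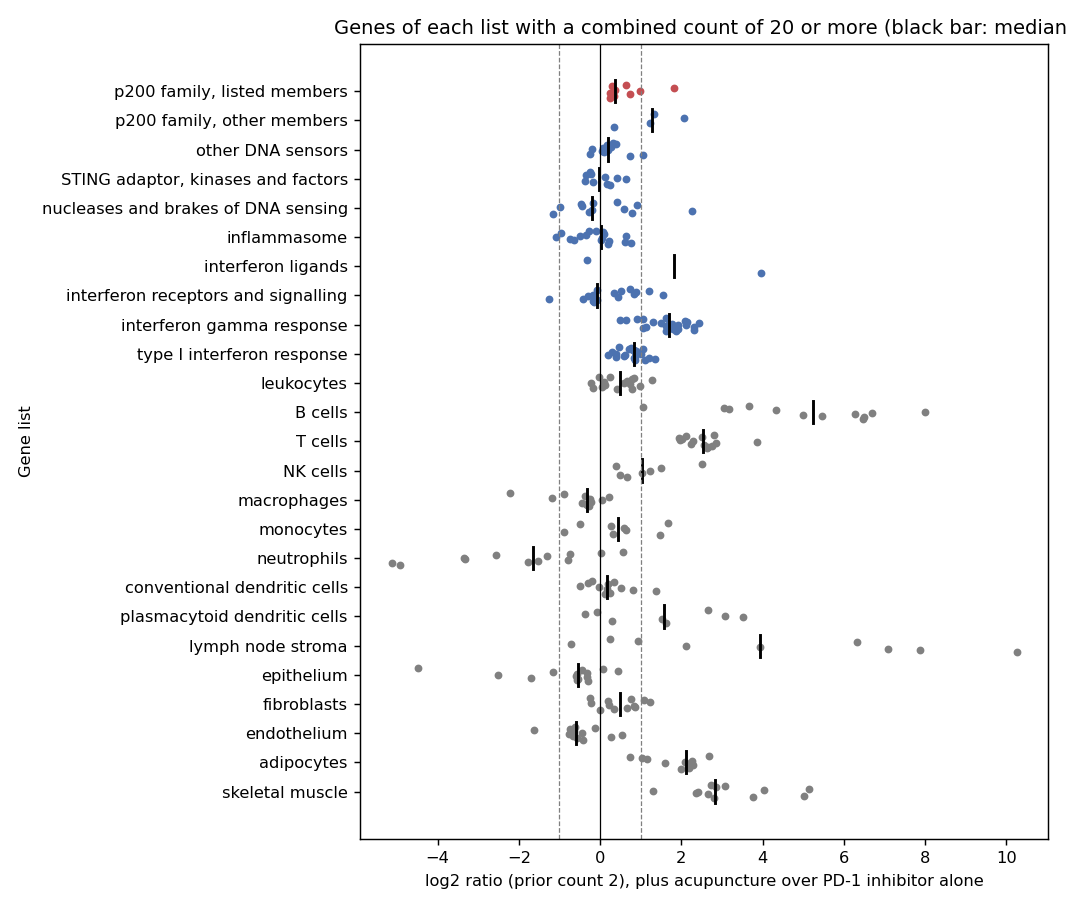
Log2 ratio (prior count of 2) of each gene whose combined count reached 20, by list, with the 9 p200 members in red, pathway lists in blue, cell type lists in grey and a black bar at each median. The p200 members sit at a median of 0.36, below the interferon gamma response (1.69) and the type I response (0.83), and dashed lines mark 2-fold. The 4 other family genes have a median of 1.27.

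The libraries also differed in the cells that could carry these genes. The tissue label was met by epithelial keratins in both libraries, with Krt8 at 1564 and 1060 CPM, and the 14 epithelial markers summed to 4448 and 3065 CPM with Elf5 at 53 and 0 counts. The 16 leukocyte markers summed to 1411 and 1695 CPM, 1.2-fold higher (1.19 to 1.21) and so close to the 1.26 of the p200 members, with 1 gene called higher, 0 lower and a median log2 ratio of 0.50. All 14 T cell markers (36.2 and 204 CPM) and all 12 B cell markers (11.5 and 158 CPM, Fcmr at 0 and 386 counts) were higher. The 12 macrophage markers, of cells known for expressing several p200 genes, summed to 3380 and 2539 CPM, with 0 higher and 2 lower. Of 9 lymph node genes 6 were higher and 0 lower, with the largest ratio for Glycam1, at 4 and 4923 counts. The sum of the 9 was 740 and 658 CPM, most of it from Clu (701 and 426 CPM), which was not called. That sum therefore says little about the other genes of the list. Also higher were 11 of 12 adipocyte genes (627 and 2217 CPM summed) and 12 of 12 skeletal muscle genes (250 and 2339 CPM summed). Monocyte markers summed to 444 and 494 CPM and conventional dendritic cell markers to 348 and 350. Of the other lists, 4 of 7 NK cell, 5 of 8 plasmacytoid dendritic cell and 2 of 12 fibroblast genes were higher with 0 lower, and 1 of 12 endothelial genes was lower with 0 higher. The plasmacytoid list summed to 402 and 426 CPM, mostly from Bst2 (206 and 253) and Tcf4 (192 and 149), which were not called. The part of these cell contents in the p200 ratios was not tested.

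Set against the median of the leukocyte markers, the abundant family genes were not higher. The summed level of those markers was 1.2-fold higher, less than the 1.26 of the summed members, so the direction depends on whether median or sum is used. With library sizes scaled so that the leukocyte list had a median log2 ratio of 0, the summed ratio of the 9 members was 0.893, and 5 of them lay below 0, at log2 ratios of -0.26 for Ifi203, -0.24 for Ifi207, -0.21 for Mndal, -0.16 for Ifi204 and -0.14 for Ifi211. Aim2 (0.15), Ifi205 (0.25), Ifi209 (0.49) and Ifi213 (1.41) stayed above 0. With the epithelial list set to 0 instead, all 9 lay above 0, the summed ratio was 1.84 and 4 members were called higher. The direction of the abundant members thus differed between these 2 scalings, whereas all 9 lay above 0 with scaling by TMM, total counts, DESeq2 size factors and the upper quartile.

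The genes most like Ifi203, by distance of log2 CPM in the 2 libraries, were Acsl5, Ranbp1, Ifi27, Ybx3 and Slc38a2, at distances from 0.0108 to 0.0458. Ifi27 is itself an interferon-induced gene, at 222 and 254 CPM. With 2 libraries this likeness rests on 2 values per gene.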

How the data were processed

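Messenger RNA of breast tumour tissue was sequenced from 1 library per group, per the labels. The table the authors deposited holds raw counts of reads, 1 row per gene symbol and not normalized, with totals of 105728292 (PD-1 inhibitor alone) and 60752043 (plus acupuncture). The submitters' processing notes name the builds GRCm39 and mm39. The aligner, the counter and the strand option were not given in the sources used here. TMM factors (edgeR 4.0.16, R 4.3.3, genes whose combined count reached 20) were 0.966 and 1.04. Ratios carry exact 95% binomial intervals from the 2 counts of a gene. The labels name no molecular identifiers and reads need not be independent molecules, so both intervals and the floor of 3 counts describe counting error alone. Log2 ratios carry a prior count of 2.

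Members and the 24 gene lists (310 entries, 7 of them without a row) were chosen with earlier results of these data known. Named genes were all family genes, genes called or most abundant in each pathway list, the most abundant and most different cell markers, the 5 genes likest Ifi203 and neighbours in RefSeq order. A gene that this rule names is not reported here. Protein sequences were not used here, so resemblance between members and coding lengths come from GENCODE M21 transcripts. Alternatives were other scalings (DESeq2 1.42.0 size factors among them), prior counts, count minimums and fold limits. The calculation was tested on simulated data. Python 3.11.15, scipy 1.17.1 and pandas 2.3.3 were used.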

Additional observations from a re-analysis of the deposited data

How the results depend on the processing

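With 1 library per group no replicate could be left out. No paired analysis was possible because each group holds 1 library and no test was run. Against 1 member called higher, 2 were called with total counts or the upper quartile, 4 with the epithelial list set to 0, 4 with a 1.5-fold limit and 0 with a combined count of at least 100. DESeq2 size factors, the leukocyte list set to 0, a combined count of at least 1, a 4-fold limit and the 2-fold limit without the interval left the number at 1, and under every one of these alternatives 0 members were called lower. The summed ratio of 1.26 became 1.35 with total counts, 1.24 with DESeq2 size factors, 1.28 with the upper quartile, 0.893 with the leukocyte list set to 0, 1.84 with the epithelial list set to 0, 1.27 with the other family genes added and 1.3 without Ifi203. Over the 9 pathway lists, which hold 3 of the scarce family genes, 34 genes were called higher and 3 lower, against 36 and 2 with total counts, 21 and 7 with the leukocyte list set to 0, and 63 and 0 with the epithelial list set to 0. These last 2 scalings shift all genes by -0.50 and 0.55 on the log2 scale and total counts shift them by 0.10. Prior counts of 0.5 and 5 moved the log2 ratio of Ifi213 from 1.83 to 2.09 and 1.47. Ifi213, at 6 and 17 counts, is the member whose value depth limits most.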

Other observations

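The genes beside the p200 run on chromosome 1 were read from RefSeq order. On the side of Aim2, Cadm3, a cell adhesion molecule of nerve and other tissues, had 1390 counts in the PD-1-only library and 1563 in the acupuncture library, 1.82-fold higher (1.7 to 1.96). Next to it, Ackr1, the atypical chemokine receptor of venules and red cell precursors, had 31 and 136 counts, 7.12-fold higher (4.79 to 10.9), past the 2-fold limit. Fcer1a, the IgE receptor chain of mast cells and basophils, had 196 and 128 counts, a ratio of 1.06 (0.841 to 1.33) with an interval that included 1. On the side of Ifi205 the nearest genes are olfactory receptors, and Olfr433 had 9 and 8 counts.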
